A study of Oryzias latipes with 18 samples.

Results

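Tubulins, kinesins and microtubule regulators were followed in the testis of medaka (Oryzias latipes), a small freshwater fish. The members were all genes of the deposited table whose symbol, case ignored, begins with tuba, tubb, tubd, tube, tubg, katn, mapre, stmn, racgap1 or prc1, or with kif and a digit other than the kif3 and kif17 genes, with a mean of at least 10 normalized reads over 18 libraries. There were 54 such genes of 18792 at that mean. A further 3 symbols matched and lay under it, stmn4 with a mean of 1.31 normalized reads, tuba1c with 3.65 and tubb2 with 8.0.

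Microtubules are hollow polymers of alpha and beta tubulin dimers that grow mainly from gamma tubulin complexes, are tracked at their growing ends by EB proteins, cut by katanin and depolymerised by kinesins of the KIF2 group, while stathmins bind free dimers. Kinesins are motors that walk on these polymers or change their ends. At the close of cell division, PRC1 bundles the midzone microtubules and the centralspindlin complex, made of the motor KIF23 and the GTPase-activating protein RACGAP1, organises the cleavage furrow. In the testis the same machinery builds the mitotic and meiotic spindles, the intercellular bridges between germ cells, the manchette that shapes the spermatid head and the axoneme of the flagellum.

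The control lineage had no ancestral bisphenol A (BPA) exposure, and the BPA lineage descended from ancestors that met BPA at 10 µg/L as embryos, 4 generations before the fish studied. Males of each lineage were held for 21 days at 0, 0.002 or 0.02 mg/L of perfluorooctane sulfonate (PFOS), a persistent fluorinated surfactant, which gave 6 groups of 3 biological replicates. The labels give no age or strain, and do not say whether a replicate was 1 fish or several. The comparisons address how PFOS acted on the testis with and without ancestral BPA.

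Recovered reads ran from 23.7 to 47.7 M per library, and the 54 genes took 0.642 to 0.803% of normalized reads in 17 of the libraries. Testis markers were present in those 17 libraries: the summed meiotic prophase list (12 genes) ran from 44663 to 78020 normalized reads and the spermatid and flagellum list (22 genes) from 72828 to 121064. Control lineage PFOS 0.002 replicate 2 stood apart, with 860854 normalized reads over the 11 oocyte and ovary markers against 423 to 7264 elsewhere, and it is left out of all tests below, so that its group has n = 2. In the control lineage without PFOS, the 11 gut and kidney markers summed to 46031 normalized reads in replicate 1, 481 in replicate 2 and 41926 in replicate 3, against 91.1 to 489 in the other 15 libraries. That group enters every comparison against unexposed control fish. Differences without replicates 1 and 3 together are given for some members only. Where none is given, that does not mean that the call held without them. A lower value in whole testis can reflect fewer cells of a type or less RNA per cell, which cannot be told apart here.

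Values below are normalized reads per library, in the order of replicates 1, 2 and 3 (1 and 3 in the control lineage at 0.002 mg/L). Differences are log2 differences of group means of log2(normalized reads + 1) ± SE from limma, which understate changes of low genes. A gene was called where its two-sided Benjamini-Hochberg adjusted p over 18792 genes was under 0.05. The interaction is the PFOS difference in the BPA lineage minus that in the control lineage.

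Of the 54 genes, 17 were called in at least 1 of 9 comparisons and 37 in none. The centralspindlin gene racgap1 moved furthest: unexposed control testes held the most of it, PFOS lowered it in the control lineage, and in the BPA lineage the unexposed testes held the least. The microtubule depolymerase KIF2A and the katanin regulator katnbl1 had the same order of unexposed groups, while katna1, the katanin cutting subunit, was lowest in unexposed control testes. By group means, 13 members were highest and 23 lowest in unexposed control fish, which left 18 in between. The BPA lineage at 0.002 mg/L was at neither end for most members, with 1 highest and 2 lowest. The same order was not counted over all genes, so these counts are no result about the members as a set.

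**Figure D1:**
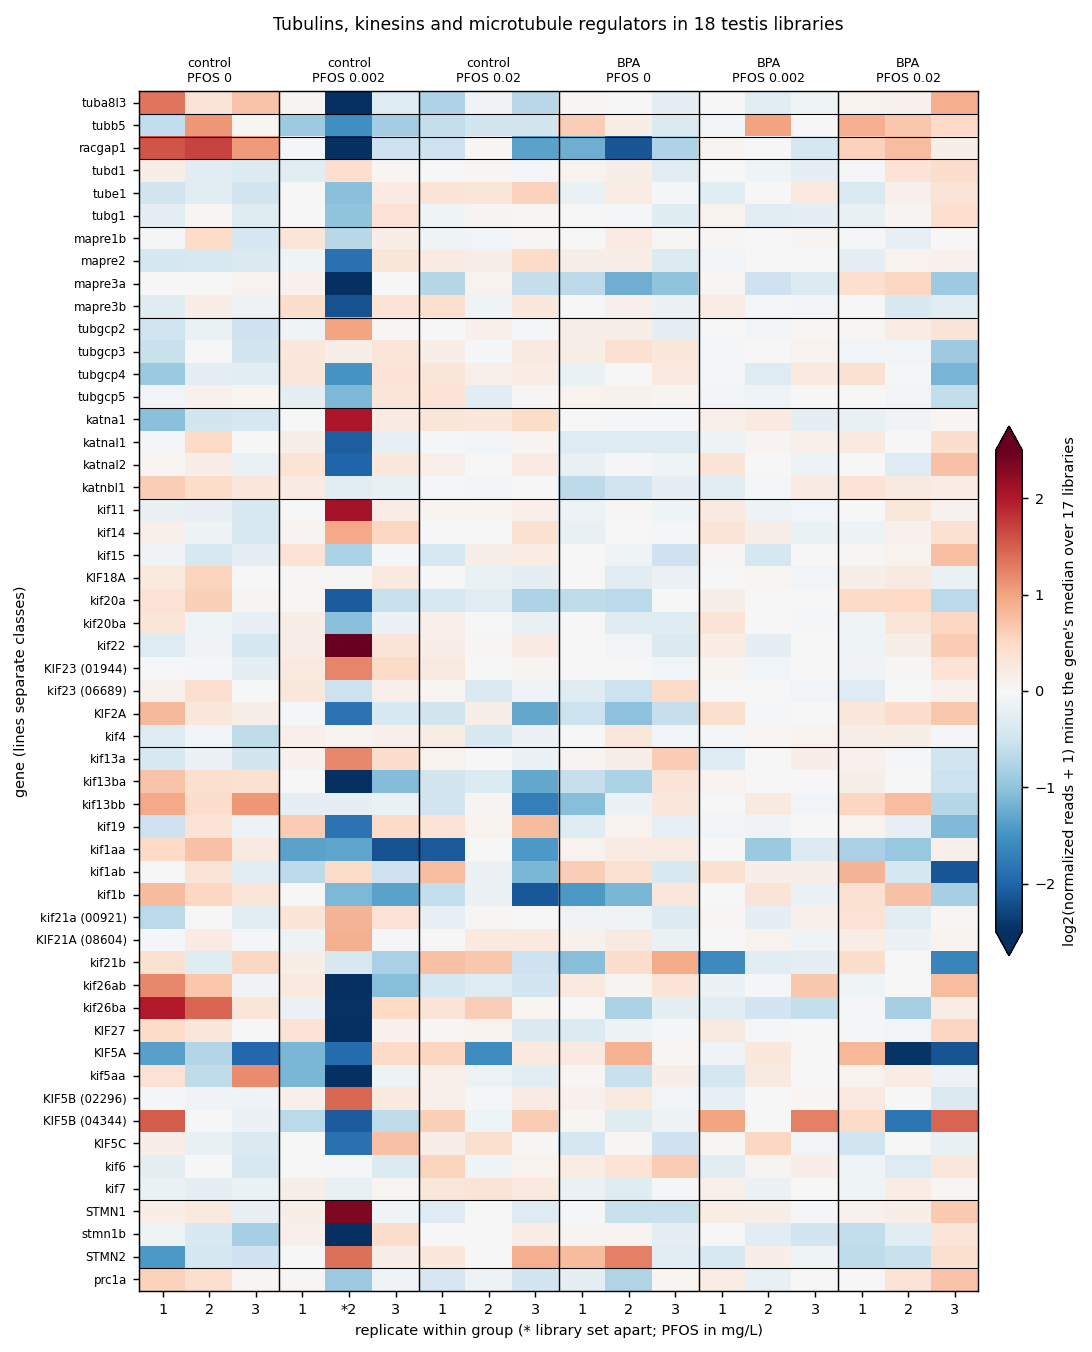
Each row is 1 member gene and each column 1 of the 18 libraries, grouped by lineage and PFOS (mg/L). Colour is log2(normalized reads + 1) minus the gene's median over 17 libraries, with colours ending at 2.5 in either direction. The racgap1 row is red in the 3 unexposed control libraries, and the starred library departs from the others in most rows.

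In the control lineage, PFOS at 0.02 mg/L changed 9 of 54 members (16.7%), against 12.8% of all genes tested. The 3 that rose, katna1, mapre2 and tube1, compare with a background of 6.15% of genes higher. The 6 that fell, racgap1, tuba8l3, KIF2A, kif1aa, kif13ba and kif13bb, compare with 6.67% lower. The median member difference was 0.10 against 0.03 over all genes, and 24 members had an unadjusted p under 0.05. At 0.002 mg/L racgap1 and kif1aa fell and none rose, 3.7% of members against 4.59% of genes called, 1.86% higher and 2.74% lower. Both shares lie near those of all genes, so they are no result about the members as a set. In the group at 0.02 mg/L the oocyte and ovary markers summed to 1004, 7264 and 2508 normalized reads, against 423 to 561 without PFOS, and 5 of 9 tested rose. As the mean log2(normalized reads + 1) over a list, Sertoli cell markers stood at 9.53 to 9.84 in that group against 10.37 to 10.82 without PFOS, and 2 of 11 fell. Smooth muscle and connective tissue markers stood at 8.70 to 9.13 against 9.33 to 10.25, and 3 of 10 fell. Blood markers stood at 2.83 to 4.03 against 5.26 to 5.51, with 0 of 4 called by limma, and of the gut and kidney markers 6 of 10 fell. At 0.002 mg/L in the control lineage, Sertoli cell markers stood at 8.93 to 9.63, and 3 of 11 fell. Smooth muscle and connective tissue markers stood at 8.29 to 8.84 there, and 2 of 10 fell. The part of these transcripts in the member values was not tested.

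In the BPA lineage at 0.02 mg/L limma called racgap1 as higher and no other member. That was 1.85% of members against 0.41% of genes called, 0.357% higher and 0.0532% lower. At that dose 11 members, 9 of them higher, and 3458 genes had an unadjusted p under 0.05, and DESeq2 called more members than limma. At 0.002 mg/L limma called 0 members and 0 of 18792 genes (0%). There 4 members and 1795 genes had an unadjusted p under 0.05, and edgeR and DESeq2 also called 0 members. The median member differences were 0.16 at 0.02 mg/L and 0.05 at 0.002 mg/L, beside -0.06 and -0.05 over all genes. Smooth muscle and connective tissue markers stood at 8.67 to 9.26 at 0.02 mg/L against 9.55 to 10.05 without PFOS, as mean log2(normalized reads + 1), and 1 of 10 fell. Sertoli cell markers overlapped, at 9.54 to 10.41 against 9.68 to 10.51, and 1 of 11 rose. Oocyte and ovary markers summed to 686 to 2544 normalized reads against 692 to 927, with 0 of 9 called. Blood markers lay lower without overlap, at a mean log2 of 2.34 to 5.17 against 5.64 to 6.23. So did leukocyte markers, at 5.25 to 6.27 against 6.37 to 6.44, and gut and kidney markers, at 3.09 to 3.68 against 3.86 to 4.66. None of the genes in those lists was called. Meiotic prophase markers did not overlap, at a mean log2 of 11.67 to 11.93 against 11.23 to 11.28, and 1 of 12 rose. At 0.002 mg/L the meiotic prophase markers stood at 11.38 to 11.74, also above the unexposed group, with 0 of 12 called. The median difference of the 12 was 0.24 at 0.02 mg/L and 0.01 at 0.002 mg/L, where the list did not rise as a whole. Leukocyte markers at 0.002 mg/L stood at 5.42 to 5.52, and smooth muscle and connective tissue markers at 8.96 to 9.12. Both lay below the unexposed group, as did blood, gut and kidney, and brain and nerve markers, with none called. The part of these transcripts was not tested.

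Without PFOS, the BPA lineage differed from the control lineage in 6 members (11.1%) against 10.3% of genes: katna1 and STMN2 were higher, beside a background of 4.29% higher, and racgap1, katnbl1, KIF2A and kif26ba were lower, beside 5.97% lower. Of the gut and kidney markers 3 of 10 were lower in these BPA testes, and of the spermatid and flagellum markers 2 of 20. Meiotic prophase markers stood at a mean log2 of 11.23 to 11.28 against 11.34 to 11.66, and 3 of 12 were lower. The median difference of the 12 was 0.20, so the lower mean was not shared by the list as a whole. Sertoli cell markers had 1 of 11 higher and 1 lower, and smooth muscle and connective tissue markers 1 of 10 higher. Their part in the member values was not tested. With PFOS the lineages were not told apart in any member. At 0.002 mg/L limma called 0 members and 0% of genes, with 3 members and 1583 genes at an unadjusted p under 0.05. At 0.02 mg/L it called 0 members and 0.0213% of genes, with 10 members and 2270 genes at an unadjusted p under 0.05. edgeR and DESeq2 called 0 members in both.

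The PFOS difference itself differed between the lineages in 12 members at 0.02 mg/L (22.2%), against 14.2% of genes. It was more positive in the BPA lineage for 9 of them, racgap1, KIF2A, katnbl1, tuba8l3, prc1a, kif20a, kif13ba, kif1b and STMN1, 16.7% of members against 7.89% of genes. It was more negative for katna1, tubgcp3 and STMN2, 5.56% against 6.34%. At 0.002 mg/L racgap1 alone was called, 1.85% of members against 0.899% of genes, 0.623% in the positive and 0.277% in the negative direction. The interaction shares its unexposed libraries with the comparisons above, so each call in it is given beside the values of both lineages. Of the 12 meiotic prophase markers, 3 were called in the positive and 0 in the negative direction at 0.02 mg/L, with a list median of -0.25. In unexposed BPA testes 3 of them were lower and 0 higher, and in the control lineage at 0.02 mg/L 2 rose and 2 fell. The part of meiotic cells in the member values was not tested. Leaving out control lineage PFOS 0 replicates 1 and 3 together leaves 1 library in that group. The 12 member interactions at 0.02 mg/L then kept their signs, from -1.69 for STMN2 to 4.17 for racgap1. All but that of racgap1 lost their call, as did the calls in the other comparisons. With the library apart put back, limma called 1 member in the interaction at 0.02 mg/L and 0 at that dose within either lineage.

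**Figure D2:**
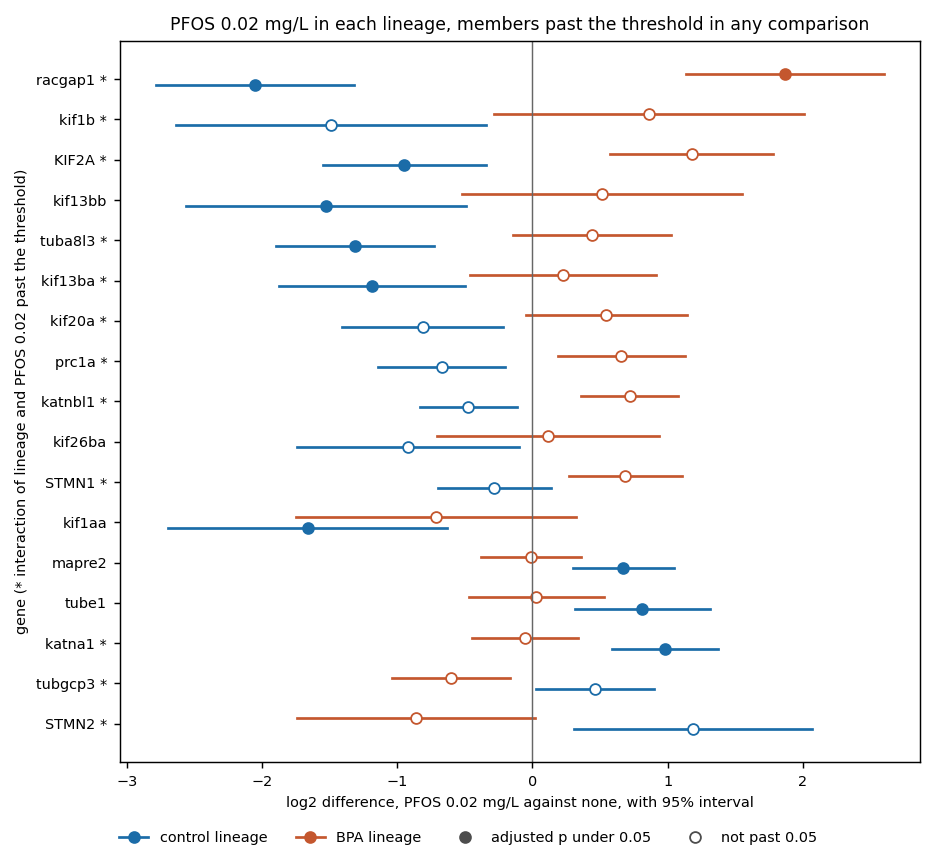
Log2 difference of PFOS 0.02 mg/L against none with its 95% interval for the 17 members called in any comparison, in the control lineage (blue) and the BPA lineage (orange). Filled points passed an adjusted p of 0.05, and stars mark the 12 members with a called interaction. For racgap1 the control lineage lies at -2.05 and the BPA lineage at 1.87, the widest gap of the 17.

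racgap1 (ENSORLG00000015540) encodes the GTPase-activating subunit of centralspindlin. In the control lineage it stood at 3935, 4238 and 2743 normalized reads without PFOS, 1267 and 916 at 0.002 mg/L, then 922, 1336 and 518 at 0.02 mg/L. In the BPA lineage it stood at 563, 299 and 770 without PFOS, 1372, 1315 and 963 at 0.002 mg/L, then 1951, 2246 and 1447 at 0.02 mg/L. No PFOS-exposed control library reached the lowest unexposed control library, and in the BPA lineage both PFOS groups lay wholly above the unexposed one, the reverse order.

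In the control lineage racgap1 fell by 1.73 ± 0.39 at 0.002 mg/L (limma, adjusted p = 0.0293) and fell by 2.05 ± 0.35 at the higher dose (adjusted p = 0.00658). In the BPA lineage the difference was 1.25 ± 0.35 at 0.002 mg/L (limma, adjusted p = 0.43) and 1.87 ± 0.35 at 0.02 mg/L (adjusted p = 0.045). Unexposed BPA testes lay 2.82 ± 0.35 below unexposed control testes on the log2 scale (limma, a difference of -2.82, adjusted p = 0.00093), while at 0.002 and 0.02 mg/L the lineages differed by 0.16 ± 0.39 and 1.1 ± 0.35 (adjusted p = 0.948 and 0.258). The interaction was 2.98 ± 0.52 at 0.002 mg/L (limma, adjusted p = 0.0315) and 3.92 ± 0.49 at 0.02 mg/L (adjusted p = 0.000901).

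The interaction of racgap1 at 0.02 mg/L was called in each of 26 alternatives, between 3.54 and 4.24, with a highest adjusted p of 0.0268 (limma, edgeR and DESeq2). The highest racgap1 value, 4238 normalized reads, came from control replicate 2. Without control lineage PFOS 0 replicates 1 and 3, which leaves 1 library in that group, the interaction at 0.02 mg/L was 4.17. The control lineage differences were then -1.975 at 0.002 mg/L and -2.30 at 0.02 mg/L, and the unexposed lineage difference was -3.06. These differences were not called in that fit. The part of gut and kidney transcripts in racgap1 was not tested. The rise in the BPA lineage was the least stable racgap1 call, lost in 16 of 26 alternatives. It was lost when any 1 of 11 of the 17 libraries was left out, with values from 1.49 to 2.17. The highest adjusted p among those fits was 0.235 (limma), without BPA lineage PFOS 0 replicate 2. It was also lost in edgeR (adjusted p = 0.0652), and in limma with all 18 libraries (0.408), the compared groups alone (0.168) and the replicate block (0.0619). The call at 0.002 mg/L in the control lineage was lost without control lineage PFOS 0 replicate 1 (limma, -1.66, adjusted p = 0.106) or replicate 3 (-1.92, 0.0559), or PFOS 0.002 replicate 3 (-1.50, 0.397). The interaction at 0.002 mg/L was lost without any 1 of 7 libraries, with a highest adjusted p of 0.242.

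prc1a encodes the midzone bundler that works beside centralspindlin. It stood at 4883, 4330 and 3364 normalized reads in unexposed control testes, 3336 and 3102 at 0.002 mg/L, then 2462, 2991 and 2386 at 0.02 mg/L. In the BPA lineage it stood at 2781, 1944 and 3383, then 3705, 2871 and 3278, then 3269, 4072 and 5396. The control lineage ran downward without overlap against its unexposed group, and the BPA lineage groups overlapped. The PFOS difference at 0.02 mg/L was -0.67 ± 0.22 in the control lineage and 0.66 ± 0.22 in the BPA lineage (limma, adjusted p = 0.0543 and 0.145), neither called. The interaction was 1.33 ± 0.31 (limma, adjusted p = 0.0121), which held with each library left out in turn. Without control lineage PFOS 0 replicates 1 and 3 together, which leaves 1 library in that group, it was 1.39 and not called.

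The motor subunit of centralspindlin did not follow racgap1. Of the 2 genes named kif23, ENSORLG00000006689 stood at 5975, 7403 and 5445 normalized reads in unexposed control testes and 5666, 4277 and 5179 at 0.02 mg/L. Its BPA lineage values were 4482, 3784 and 7710 without PFOS and 4407, 5517 and 5923 at 0.02 mg/L. The groups overlapped in both lineages, and its interaction at 0.02 mg/L was 0.36 with a 95% interval of -0.30 to 1.02. ENSORLG00000001944 stood at 1788, 1744 and 1542 normalized reads in unexposed control testes and 2120, 1815 and 1878 at 0.02 mg/L, higher without overlap. Its BPA lineage groups overlapped, at 1791, 1796 and 1722 without PFOS and 1699, 1851 and 2289 at 0.02 mg/L. For this gene the interaction was -0.07 with an interval of -0.52 to 0.38. Both intervals end below the 3.92 of racgap1, a contrast that was not itself tested. Reads of 2 genes with the same symbol may be shared between them, since the counting rule is not given in the sources used here.

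**Figure D3:**
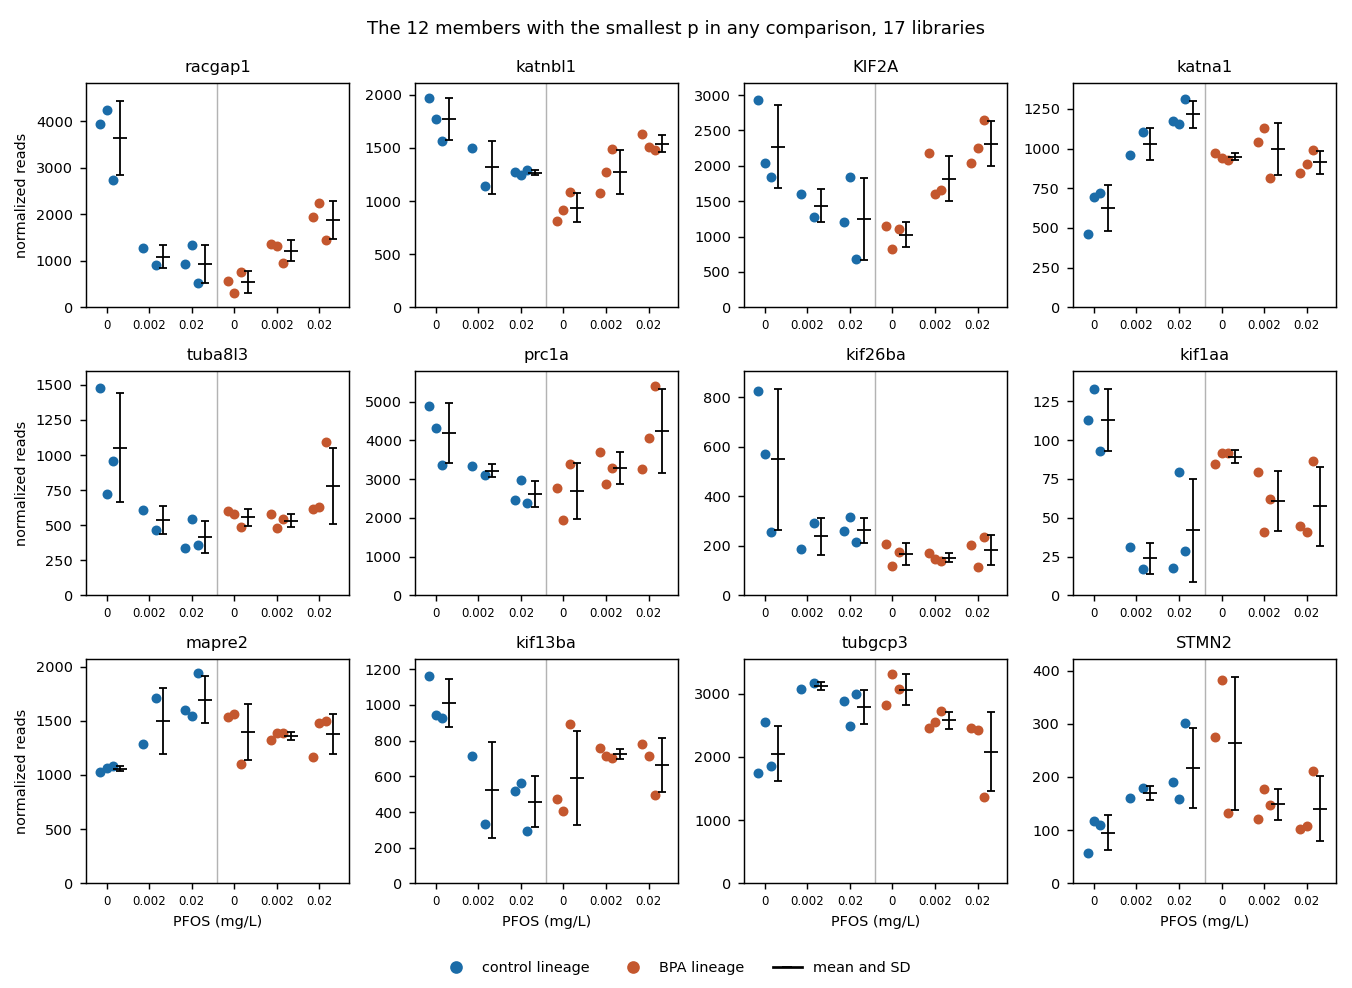
Normalized reads (linear axis from 0) per library for the 12 members with the smallest p in any comparison, by PFOS (mg/L) and lineage, with control in blue and BPA in orange. Bars show the mean and SD over 3 libraries (2 in the control lineage at 0.002 mg/L). racgap1, katnbl1 and KIF2A run down across PFOS in the control lineage and up in the BPA lineage.

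KIF2A, a kinesin that strips tubulin from microtubule ends at spindle poles and in cilia, was the spindle kinesin with the widest changes. It stood at 2934, 2037 and 1840 normalized reads in unexposed control testes, 1603 and 1271 at 0.002 mg/L, then 1212, 1845 and 682 at 0.02 mg/L. In the BPA lineage it stood at 1154, 820 and 1110, then 2187, 1601 and 1665, then 2037, 2251 and 2654. The unexposed lineages did not overlap, and both PFOS groups of the BPA lineage lay above its unexposed group, while in the control lineage 1 library at 0.02 mg/L reached the unexposed range.

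KIF2A fell by 0.95 ± 0.29 in the control lineage at 0.02 mg/L (limma, adjusted p = 0.0404) and lay lower in unexposed BPA testes, at -1.13 ± 0.29 (adjusted p = 0.0225). The PFOS difference in the BPA lineage was 1.18 ± 0.29 and missed the threshold (limma, adjusted p = 0.0663). The interaction at 0.02 mg/L, 2.13 ± 0.40, was called (limma, adjusted p = 0.00417) and held with each library left out in turn. Without control lineage PFOS 0 replicates 1 and 3 together, which leaves 1 library in that group, it was 2.0 and not called. The fall in the control lineage was lost without any 1 of 7 libraries, with values from -1.29 to -0.57 (limma, highest adjusted p = 0.213, without control lineage PFOS 0.02 replicate 3). The lineage difference was lost without control lineage PFOS 0 replicate 1 (-0.93, adjusted p = 0.114) or BPA lineage PFOS 0 replicate 1 (-1.22, 0.0551) or 2 (-0.97, 0.125) (limma).

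kif20a, a motor of the late spindle needed for cytokinesis, stood at 7595, 8875 and 6165 normalized reads in unexposed control testes, 6117 and 4031 at 0.002 mg/L, then 4482, 4942 and 3459 at 0.02 mg/L. In the BPA lineage it stood at 3803, 3673 and 5846, then 6535, 5916 and 5894, then 8228, 8374 and 3700. Both PFOS groups of the control lineage lay below the unexposed one, and replicate 3 of the BPA lineage at 0.02 mg/L fell back to the unexposed range. The interaction at 0.02 mg/L was 1.36 ± 0.40 (limma, adjusted p = 0.0329), and it was lost without any 1 of 8 libraries, with values from 1.16 to 1.75 and a highest adjusted p of 0.0969. Its PFOS differences within each lineage, -0.81 ± 0.28 and 0.55 ± 0.28, were not called (limma, adjusted p = 0.0657 and 0.313).

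The other 9 spindle and cytokinesis kinesins were called in no comparison. kif11, the motor that pushes spindle poles apart, stood at 5566, 5481 and 4795 normalized reads in unexposed control testes and 6613, 6592 and 6925 at 0.02 mg/L, groups that did not overlap. Its difference was 0.35 ± 0.15 (limma, adjusted p = 0.118). kif22, a chromosome-arm motor, stood at 4111, 4810 and 3785 without PFOS and 5770, 5261 and 5942 at 0.02 mg/L in the control lineage, also without overlap, with a difference of 0.42 ± 0.19 (limma, adjusted p = 0.138). Over all 11 genes of this class the median difference at 0.02 mg/L was 0.20 in the control lineage and 0.21 in the BPA lineage.

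Among the tubulins, the single alpha gene tuba8l3 moved and the single beta gene tubb5 was not called. tuba8l3 stood at 1478, 725 and 957 normalized reads in unexposed control testes, 609 and 464 at 0.002 mg/L, then 340, 546 and 361 at 0.02 mg/L. In the BPA lineage it stood at 600, 583 and 489, then 577, 481 and 541, then 619, 631 and 1094. Unexposed control libraries lay above all others of that lineage, and the BPA lineage at 0.02 mg/L lay just above its unexposed group, by 1 high library in the main.

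tuba8l3 fell by 1.31 ± 0.28 in the control lineage at 0.02 mg/L (limma, adjusted p = 0.0131), against 0.44 ± 0.28 in the BPA lineage (adjusted p = 0.411), and the interaction was 1.75 ± 0.39 (adjusted p = 0.00963). The interaction held with each library left out in turn. The fall was lost without control lineage PFOS 0 replicate 1 (-1.03, adjusted p = 0.0766) or PFOS 0.02 replicate 1 (-1.18, 0.0514) or 3 (-1.22, 0.0768) (limma). Its 2 highest unexposed control values came from replicates 1 and 3, which carry the gut and kidney transcripts. Without both, the interaction was 1.27 (limma, adjusted p = 0.133) and the fall 0.84 (a difference of -0.84, adjusted p = 0.334).

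tubb5 stood at 381, 1238 and 603 normalized reads in unexposed control testes, 311 and 324 at 0.002 mg/L, then 388, 424 and 422 at 0.02 mg/L. In the BPA lineage it stood at 897, 648 and 452, then 554, 1174 and 583, then 1093, 926 and 830. The BPA lineage lay above the control lineage without overlap at both PFOS levels. Those differences were 1.19 ± 0.41 and 1.20 ± 0.36 (limma, adjusted p = 0.477 and 0.251).

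The centriolar epsilon tubulin tube1 stood at 199, 224 and 199 normalized reads in unexposed control testes, 275 and 317 at 0.002 mg/L, then 344, 341 and 412 at 0.02 mg/L. In the BPA lineage it ran from 213 to 343 over the 9 libraries. The 3 control groups lay in increasing order without overlap, and tube1 was higher at 0.02 mg/L by 0.81 ± 0.24 (limma, adjusted p = 0.0372). That call was lost without any 1 of 6 libraries, with values from 0.72 to 0.87 and a highest adjusted p of 0.156, without control lineage PFOS 0.02 replicate 3. The delta tubulin tubd1, at 285 to 493 normalized reads, and the gamma tubulin tubg1, at 5245 to 8650 over the 17 libraries, were called in no comparison.

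Of the 4 gamma tubulin complex genes, tubgcp3 alone was called. It stood at 1748, 2547 and 1850 normalized reads in unexposed control testes, 3076 and 3164 at 0.002 mg/L, then 2886, 2489 and 2993 at 0.02 mg/L. In the BPA lineage it stood at 2813, 3311 and 3068, then 2462, 2558 and 2724, then 2456, 2426 and 1367. Both PFOS groups of the BPA lineage lay below its unexposed group, and the unexposed control group lay below the unexposed BPA group. The interaction at 0.02 mg/L was -1.06 ± 0.29 (limma, adjusted p = 0.0246). It was lost without any 1 of 5 libraries, with values from -1.23 to -0.79 and a highest adjusted p of 0.0702, and was -0.73 without control lineage PFOS 0 replicates 1 and 3 together (limma, adjusted p = 0.26). tubgcp4 had differences of the same signs, 0.68 ± 0.30 in the control lineage and -0.30 ± 0.30 in the BPA lineage (limma, adjusted p = 0.127 and 0.612).

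Katanin cuts microtubules with an ATPase subunit, here katna1, katnal1 or katnal2, and katnbl1 is a regulator of its activity. katnbl1 stood at 1969, 1772 and 1569 normalized reads in unexposed control testes, 1496 and 1141 at 0.002 mg/L, then 1270, 1241 and 1293 at 0.02 mg/L. In the BPA lineage it stood at 816, 915 and 1088, then 1072, 1275 and 1486, then 1632, 1508 and 1479. The lineages began far apart, crossed, and at 0.02 mg/L the BPA lineage lay above the control lineage in each library.

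Unexposed BPA testes lay below control in katnbl1 by a log2 difference of -0.92 ± 0.17 (limma, adjusted p = 0.00633), and the interaction at 0.02 mg/L was 1.20 ± 0.24 (adjusted p = 0.00585). Both held with each library left out in turn. Without control lineage PFOS 0 replicates 1 and 3 together, which leaves 1 library in that group, they were -0.93 and 1.20, and neither was called. The PFOS differences at 0.02 mg/L were -0.48 ± 0.17 in the control lineage and 0.72 ± 0.17 in the BPA lineage and missed the threshold (limma, adjusted p = 0.0716 and 0.0634).

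katna1 took the opposite course. It stood at 462, 698 and 719 normalized reads in unexposed control testes, 959 and 1102 at 0.002 mg/L, then 1175, 1154 and 1315 at 0.02 mg/L. In the BPA lineage it stood at 972, 943 and 929, then 1043, 1131 and 813, then 844, 903 and 991. The control lineage groups lay in increasing order without overlap, and the BPA lineage stayed within 813 to 1131. katna1 rose by 0.98 ± 0.19 in the control lineage at 0.02 mg/L (limma, adjusted p = 0.00954), against -0.06 ± 0.19 in the BPA lineage (adjusted p = 0.899), with an interaction of -1.04 ± 0.26 (adjusted p = 0.0173).

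The rise of katna1 was lost without control lineage PFOS 0 replicate 1 (limma, 0.78, adjusted p = 0.0557) or PFOS 0.02 replicate 3 (0.92, 0.0653), and the interaction without the latter (-0.98, 0.0541). The unexposed lineage difference of 0.63 ± 0.19 (limma, adjusted p = 0.0422) was lost without any 1 of 10 libraries, with values from 0.42 to 0.74 and a highest adjusted p of 0.197. katnal1 and katnal2 were not called. katnal1 showed PFOS differences at 0.02 mg/L of -0.17 ± 0.17 in the control lineage and 0.55 ± 0.17 in the BPA lineage (limma, adjusted p = 0.521 and 0.124), the latter between groups that did not overlap, 9027, 9004 and 8923 against 13259, 11227 and 15273 normalized reads.

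EB proteins ride on growing microtubule ends. Of 4, mapre2 was called: it stood at 1029, 1068 and 1080 normalized reads in unexposed control testes, 1284 and 1714 at 0.002 mg/L, then 1599, 1545 and 1943 at 0.02 mg/L, and in the BPA lineage it ran from 1101 to 1563. The unexposed control libraries lay close together and below the other 14. mapre2 rose by 0.67 ± 0.18 in the control lineage at 0.02 mg/L (limma, adjusted p = 0.0264). The call was lost without control lineage PFOS 0 replicate 1 or 3 or PFOS 0.02 replicate 1 or 3, with values from 0.57 to 0.71 and a highest adjusted p of 0.136 (limma). mapre1b, at 6870 to 12562 normalized reads, mapre3b, at 5029 to 8784, and mapre3a, at 76.1 to 255, were not called.

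Of the 20 kinesins of transport, cilia and other roles, 5 were called, each with fewer normalized reads in PFOS-exposed control testes or unexposed BPA testes than in unexposed control testes. kif1aa, of the vesicle-carrying KIF1 family, stood at 113, 133 and 92.8 normalized reads in unexposed control testes, 30.9 and 16.7 at 0.002 mg/L, then 17.6, 79.8 and 28.8 at 0.02 mg/L. In the BPA lineage it stood at 84.3, 92.0 and 91.8, then 79.2, 41.1 and 61.9, then 44.7, 40.7 and 86.5. The control groups did not overlap with the unexposed one at either PFOS level. kif1aa fell by 2.24 ± 0.55 at 0.002 mg/L (limma, adjusted p = 0.0373) and fell by 1.66 ± 0.49 at the higher dose (adjusted p = 0.0382) in the control lineage. Its differences in the BPA lineage, -0.60 ± 0.49 and -0.71 ± 0.49, were not called, and the interactions of 1.64 ± 0.73 and 0.95 ± 0.69 were not either (limma, adjusted p = 0.189 and 0.369). These calls were lost without any 1 of 4 and 6 libraries, with highest adjusted p of 0.405 and 0.148 (limma).

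kif1b, of the same family, stood at 424, 351 and 299 normalized reads in unexposed control testes and 161, 220 and 55.3 at 0.02 mg/L. In the BPA lineage it stood at 89.4, 110 and 298 without PFOS and 319, 405 and 137 at 0.02 mg/L. The control groups were apart and the BPA groups overlapped. Its interaction of 2.35 ± 0.77 sat at the threshold (limma, adjusted p = 0.04999) and was lost without any 1 of 12 libraries, with values from 1.77 to 2.88 and a highest adjusted p of 0.142.

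kif13ba and kif13bb belong to the KIF13 family of vesicle motors. kif13ba stood at 1163, 943 and 926 normalized reads in unexposed control testes, 712 and 335 at 0.002 mg/L, then 516, 564 and 294 at 0.02 mg/L. In the BPA lineage it stood at 475, 408 and 895, then 756, 712 and 705, then 783, 717 and 494. Both PFOS groups of the control lineage lay below the unexposed one. kif13ba fell by 1.19 ± 0.32 at 0.02 mg/L (limma, adjusted p = 0.0294), and the interaction was 1.41 ± 0.46 (adjusted p = 0.0490). The fall was lost without any 1 of 4 libraries (limma, highest adjusted p = 0.159, without control lineage PFOS 0.02 replicate 3) and the interaction without any 1 of 12 (highest 0.143).

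kif13bb stood at 136, 95.5 and 149 normalized reads without PFOS and 49.9, 73.4 and 20.6 at 0.02 mg/L in the control lineage, and its BPA lineage libraries ran from 32.9 to 121. It fell by 1.53 ± 0.49 (limma, adjusted p = 0.0493), a call lost without any 1 of 12 libraries, with values from -1.92 to -1.03 and a highest adjusted p of 0.240. kif13a, also of the family, was called in no comparison, with a difference of 0.31 ± 0.21 in the control lineage at 0.02 mg/L (limma, adjusted p = 0.323).

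kif26ba belongs to a kinesin family without the usual motor activity. It stood at 824, 569 and 255 normalized reads in unexposed control testes and 207, 118 and 176 in unexposed BPA testes, and the other groups ran from 116 to 315. The unexposed control group was the most spread, with replicate 3 inside the range of PFOS-exposed fish. The lineage difference without PFOS was -1.59 ± 0.39 (limma, adjusted p = 0.0194), lost without control lineage PFOS 0 replicate 1 (-1.22, 0.110) or BPA lineage PFOS 0 replicate 2 (-1.37, 0.115).

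KIF27, kif7, kif19 and kif6, kinesins known from cilia or flagella, were called in no comparison. KIF27, of motile cilia, ran from 3101 to 5770 normalized reads, kif7, of the ciliary Hedgehog pathway, from 580 to 901, kif19, which trims ciliary tips, from 2340 to 8662, and kif6 from 383 to 791. kif7 came nearest, with 645, 617 and 644 normalized reads without PFOS and 875, 901 and 854 at 0.02 mg/L in the control lineage. Those groups were well apart, and the difference was 0.46 ± 0.16 (limma, adjusted p = 0.0569).

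Stathmins bind tubulin dimers and favour disassembly. STMN1 stood at 13058, 13773 and 10161 normalized reads in unexposed control testes and 9295, 11674 and 9346 at 0.02 mg/L. In the BPA lineage it stood at 11435, 7898 and 7920, then 13200, 12936 and 11487, then 12634, 12853 and 18309. The control groups overlapped, while both PFOS groups of the BPA lineage lay above its unexposed group. The interaction at 0.02 mg/L was 0.97 ± 0.28 (limma, adjusted p = 0.0304), made of -0.28 ± 0.20 in the control lineage and 0.69 ± 0.20 in the BPA lineage (adjusted p = 0.336 and 0.0989). It was lost without any 1 of 6 libraries, with values from 0.79 to 1.14 and a highest adjusted p of 0.0867.

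STMN2, best known from neurons, stood at 57.9, 117 and 111 normalized reads in unexposed control testes and 190, 159 and 301 at 0.02 mg/L. In the BPA lineage it stood at 276, 382 and 132 without PFOS and 101, 108 and 210 at 0.02 mg/L. Unexposed control testes lay below both the exposed control and the unexposed BPA testes, and the BPA lineage groups overlapped. The unexposed lineage difference was 1.39 ± 0.42 (limma, adjusted p = 0.0422), and the interaction at 0.02 mg/L was -2.05 ± 0.59 (adjusted p = 0.0296). They were lost without any 1 of 10 and 7 libraries, with highest adjusted p of 0.212 and 0.0911 (limma). The brain and nerve marker list, which STMN2 could accompany, summed to 355 to 460 normalized reads in unexposed control testes, 418 to 686 in unexposed BPA testes and 309 to 521 elsewhere. As the mean log2(normalized reads + 1) over the list, unexposed control testes stood at 4.28 to 4.47 and unexposed BPA testes at 4.94 to 5.20, with no overlap. The median difference of its 7 tested genes between the unexposed lineages was 1.21, and limma called 0 of them. The part of nerve transcripts in STMN2 was not tested. stmn1b was not called, with 14113 to 33868 normalized reads.

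Genes that work with the members were read from 6 lists. Calls of single genes in these lists were not recomputed under any of the alternatives used for the members. That includes leaving out control lineage PFOS 0 replicates 1 and 3, so how stable these calls are was not tested. At 0.02 mg/L in the control lineage, 2 of 26 genes of tubulin folding and modification rose and none fell, with a list median of 0.24. In gamma tubulin recruitment and augmin 3 of 13 rose and 1 fell (median 0.53). Among microtubule-associated and severing proteins none of 32 rose and 2 fell (median -0.34). In dynein and dynactin 2 of 29 rose and 2 fell (median 0.09), in other kinesins and partners none of 8 rose and 1 fell (median 0.17), and in spindle and cytokinesis partners 4 of 26 rose and 2 fell (median 0.10), all beside 0.03 over all genes. Over the 6 lists, 11 of 134 genes rose (8.21%) and 8 fell (5.97%), against 6.15% higher and 6.67% lower of all genes. In the BPA lineage at either dose none of the 6 lists had a called gene by limma.

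In spindle and cytokinesis partners the smallest p among called genes was that of birc5b, a survivin of the chromosomal passenger complex. It stood at 1.91, 8.90 and 6.87 normalized reads in unexposed control testes and 80.3, 65.0 and 73.0 at 0.02 mg/L, against 66.6, 92.0 and 101 and then 72.7, 24.5 and 29.3 in the BPA lineage. Unexposed control testes lay below both the exposed control and the unexposed BPA testes. birc5b rose by 3.59 ± 0.57 in the control lineage (limma, adjusted p = 0.00568), and the interaction was -4.75 ± 0.81 (adjusted p = 0.00267). In the library set apart it stood at 25600 normalized reads beside the oocyte and ovary markers, and the part of oocyte transcripts in its rise was not tested.

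HOOK3, an adaptor that ties cargo to dynein, had the smallest p among called genes of dynein and dynactin. It stood at 606, 477 and 484 normalized reads in unexposed control testes, 183 and 180 at 0.002 mg/L, then 137, 177 and 39.1 at 0.02 mg/L. In the BPA lineage it stood at 99.5, 65.7 and 120, then 260, 215 and 177, then 315, 360 and 148. Each exposed control library lay under the unexposed ones, and in the BPA lineage both exposed groups lay above. HOOK3 fell by 2.39 ± 0.46 in the control lineage at 0.02 mg/L (limma, adjusted p = 0.00957), with an interaction of 3.85 ± 0.65 (adjusted p = 0.0026).

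klc1a, a kinesin light chain that links KIF5 motors to cargo, stood at 1452, 1904 and 1498 normalized reads in unexposed control testes and 846, 981 and 657 at 0.02 mg/L, against 495, 568 and 746 and then 1728, 1239 and 727 in the BPA lineage. It fell by 0.97 ± 0.26 in the control lineage (limma, adjusted p = 0.0264), and the interaction was 1.94 ± 0.36 (adjusted p = 0.00396). The KIF5 heavy chain genes themselves were called in no comparison. ckap5, a polymerase of microtubule plus ends, fell by 1.63 ± 0.39 (limma, adjusted p = 0.0211), with an interaction of 2.52 ± 0.56 (adjusted p = 0.0095). In control lineage testes at the lower dose, eml3, of a family of microtubule-binding proteins, fell by 1.59 ± 0.36 (limma, adjusted p = 0.03), from 220, 181 and 359 normalized reads to 95.6 and 67.0.

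Other partners went the other way. dctn1b, the dynactin subunit that holds the microtubule, stood at 1031, 1800 and 1594 normalized reads in unexposed control testes and 3645, 2119 and 4292 at 0.02 mg/L, against 2811, 3271 and 2511 and then 2144, 2086 and 1538 in the BPA lineage. The groups were apart in both lineages, in opposite directions. dctn1b rose by 1.16 ± 0.26 in the control lineage (limma, adjusted p = 0.0154), with an interaction of -1.74 ± 0.36 (adjusted p = 0.00691). ttl, which restores the terminal tyrosine of alpha tubulin, rose by 0.66 ± 0.17 (limma, adjusted p = 0.024), with an interaction of -0.97 ± 0.24 (adjusted p = 0.0145).

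**Figure D4:**
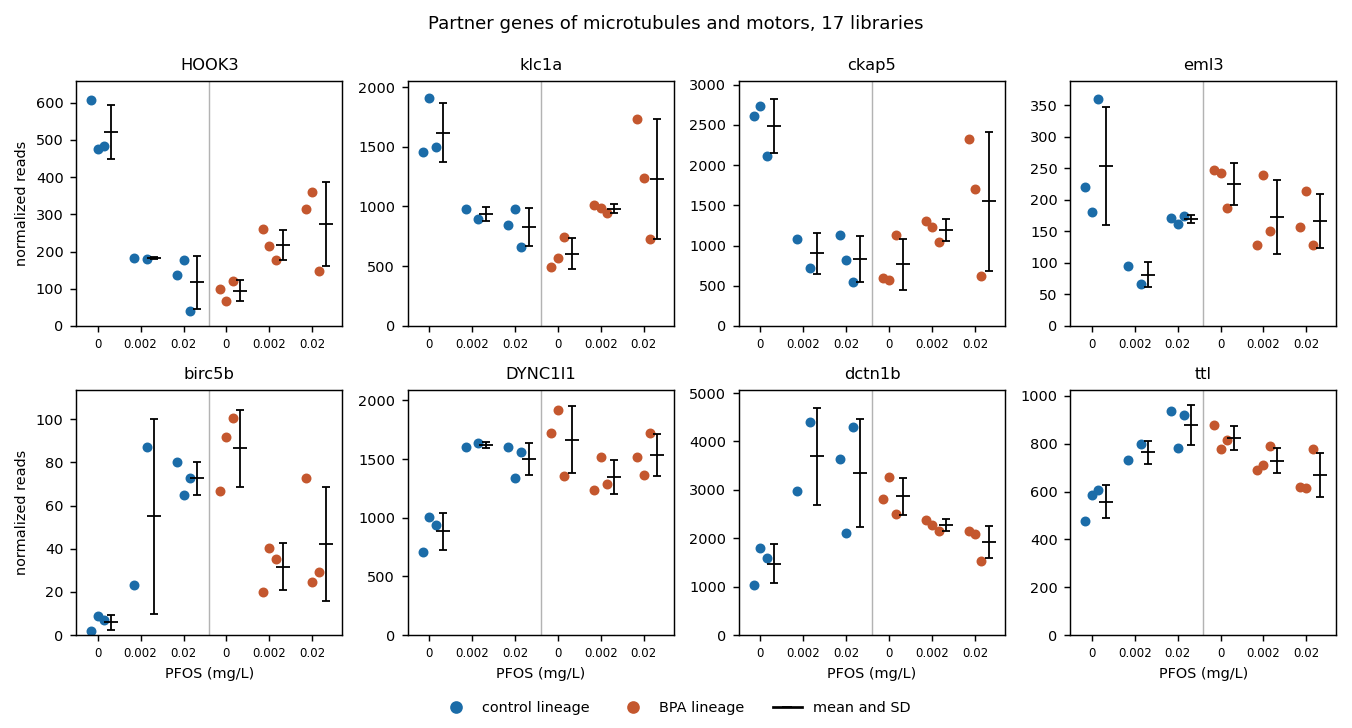
Normalized reads (linear axis from 0) per library for 8 partner genes of microtubules and motors, by PFOS (mg/L) and lineage, with control in blue, BPA in orange and bars for mean and SD. HOOK3, klc1a, ckap5 and eml3 have their highest group mean in unexposed control testes, and birc5b, DYNC1I1, dctn1b and ttl their lowest.

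For the interaction at 0.02 mg/L the lists gave 0 higher and 2 lower of 26 for folding and modification, 1 and 3 of 13 for recruitment and augmin, 3 and 0 of 32 for associated and severing proteins, 3 and 3 of 29 for dynein and dynactin, 1 and 0 of 8 for other kinesins, and 3 and 1 of 26 for spindle and cytokinesis partners. That made 11 higher (8.21%) and 9 lower (6.72%) of 134, against 7.89% and 6.34% of all genes. Their medians ran from -0.59 to 0.13, beside -0.10 over all genes. In unexposed fish the same lists gave 1 and 1, 1 and 1, 0 and 1, 3 and 2, 0 and 1, and 1 and 0 genes higher and lower in the BPA lineage, together 6 (4.48%) each way against 4.29% higher and 5.97% lower of all genes. These shares lie near those of all genes, so they are no result about the lists. In each of these comparisons 3 of the 6 lists had calls in both directions.

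The library set apart, control lineage PFOS 0.002 replicate 2, held a different set of these genes. Of 54 members, 12 (22.2%) lay above all other 17 libraries, 28 (51.9%) below and 14 (25.9%) inside their range, against 28.2%, 38.5% and 33.3% of all genes. The members far above were kif22 with 31327 normalized reads against at most 8012, STMN1 with 58849 against at most 18309, kif11 with 26485 against at most 7684 and katna1 with 3911 against at most 1315. Among those far below were tuba8l3 with 39.2 normalized reads against at least 340, KIF27 with 321 against at least 3101, stmn1b with 3439 against at least 14113 and kif13ba with 66.2 against at least 294. racgap1 lay less far below, with 211 against at least 299. With 1 such library there is no replicate check and no test. The summed oocyte and ovary markers of 860854 normalized reads stood in the same library, and the spermatid and flagellum list at 10282.

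**Figure D5:**
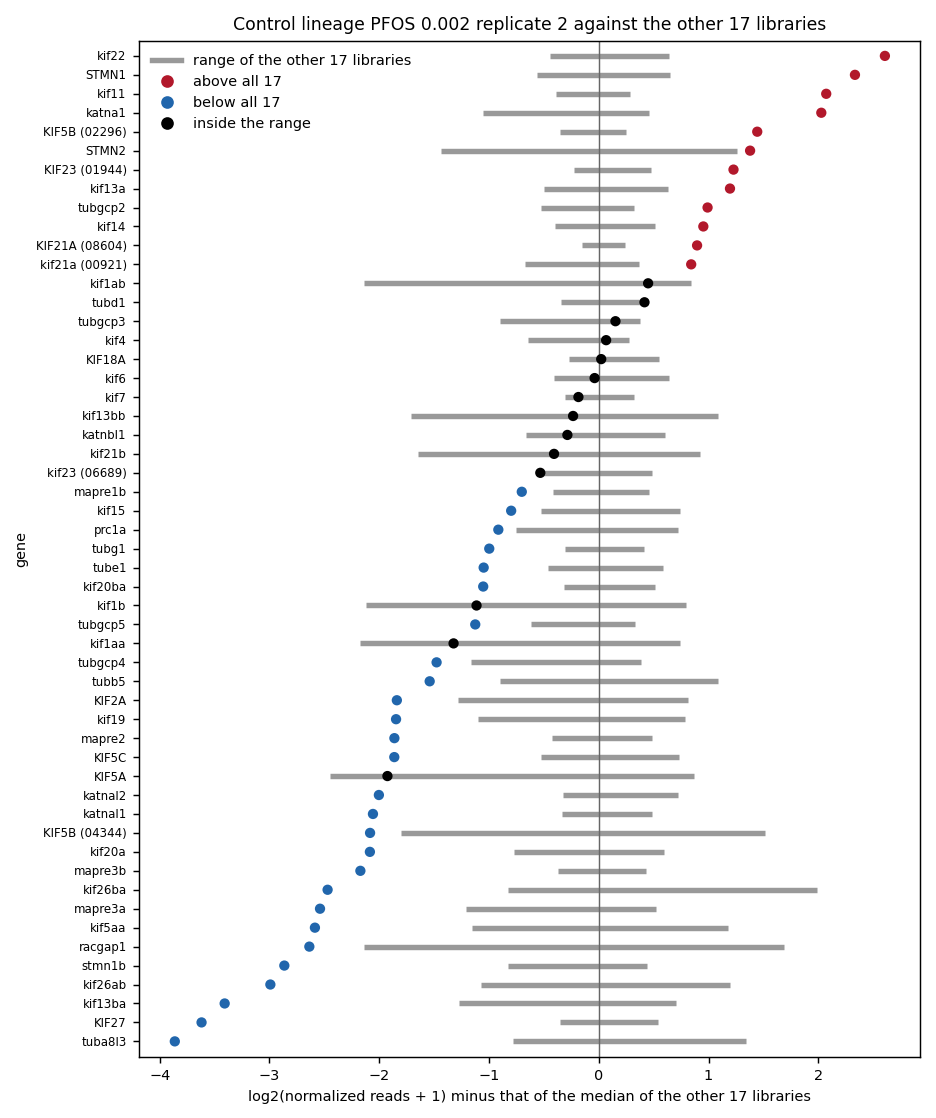
Member genes in control lineage PFOS 0.002 replicate 2 (points) against the range of the other 17 libraries (grey bar), as log2(normalized reads + 1) minus that of their median. Red points lie above all 17 (12 genes), blue below all 17 and black inside (14 genes).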

How the data were processed

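Per the file header and labels, the table deposited by the authors holds normalized signal, which is each gene's reads over a size factor of its library, for 18 testis libraries of 6 groups. Per the labels' protocols, a Zymo Quick RNA/DNA Miniprep Plus kit yielded the RNA and Novogene made NEBNext Ultra II libraries. fastp 0.23.2, STAR 2.7.7a and DESeq2 1.34.0 are listed, per the submitters' processing notes. The build, annotation, counter and strandedness were not given in the sources used here. Overlapping genes and close paralogs are therefore uncertain. Within a tolerance of 0.01, 100% of values were whole reads over 1 step per library, and these reads served edgeR and DESeq2.

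limma 3.58.1 in R 4.3.3 (trend, robust) was fitted to log2(value + 1) of 18792 genes with a mean of at least 10, in 17 libraries with 6 group means. The limma p-values set each difference against the spread between biological replicates, estimated over all 17 libraries together. Alternatives were all 18 libraries, a pseudocount of 5, no filter, TMM scaling, only the groups compared, a block on replicate number, edgeR 4.0.16, DESeq2 1.42.0, each library left out in turn and, added after seeing the data, control lineage PFOS 0 libraries 1 and 3 left out together. The procedure was tested on simulated data. Values per library are given for called members, in some for only part of the groups, and for some uncalled members. Other members are given by ranges or counts. Partner genes with values have the smallest p among called genes of their list, with the next 2 in dynein and dynactin. Members and lists were chosen with earlier results of these data known. Counts cover all members, of which 1 is neither named nor plotted.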

Additional observations from a re-analysis of the deposited data

Results flagged for a closer look

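Each result here was picked out because the PFOS effect differed between the lineages by the interaction test (limma, adjusted p under 0.05). At 0.002 mg/L this was racgap1, with a log2 interaction of 2.98. At 0.02 mg/L the positive interactions were 3.92 for racgap1, 2.35 for kif1b, 2.13 for KIF2A, 1.75 for tuba8l3, 1.41 for kif13ba, 1.36 for kif20a, 1.33 for prc1a, 1.20 for katnbl1 and 0.97 for STMN1. The negative ones were -2.05 for STMN2, -1.06 for tubgcp3 and -1.04 for katna1. All rest on the same unexposed control libraries, 2 of which carry gut and kidney transcripts. The part of those transcripts was not tested beyond leaving both libraries out.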

How the results depend on the processing

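Counts of called members moved with the libraries and the tool, and the order used below is low and high dose in the control lineage, high dose in the BPA lineage, unexposed lineages, and the interaction at low and high dose, which gave 2, 9, 1, 6, 1 and 12. With all 18 libraries they were 5, 0, 0, 0, 0 and 1. Leaving out control lineage PFOS 0 libraries 1 and 3 together was an alternative chosen after seeing the data. It leaves 1 library in that group, assumed to vary like the others. All the calls were lost there except that of racgap1 in the interaction at high dose. DESeq2 gave 6, 17, 6 and 12 in the first 4 and 3 in the fifth. The compared groups alone gave 1 in the first, 0 in the third, 4 in the fifth and 6 in the sixth, and edgeR gave 1 in the first and 0 in the third. The numbers do not pair the samples: 2 of 19 same-numbered pairs correlated above 0.1 (range -0.199 to 0.306). With the replicate block the counts were 1, 6, 0, 4, 0 and 10. Leaving out each library in turn gave ranges of 0 to 8, 1 to 18, 0 to 4, 2 to 13, 0 to 6 and 5 to 18, and 0 to 1 between the lineages at the high dose. For the high dose in the control lineage the count was 1 without control lineage PFOS 0 replicate 1, 5 without replicate 2 and 4 without replicate 3, 2 and 1 without PFOS 0.02 replicates 1 and 3, and 18 without BPA lineage PFOS 0.02 replicate 3. For the unexposed lineages it was 2 without control replicate 1, 3, 2 and 11 without BPA replicates 1, 2 and 3, and 13 without BPA lineage PFOS 0.02 replicate 3. For the interaction at the high dose it was 7 without control lineage PFOS 0 replicate 1, 6 without BPA lineage PFOS 0 replicate 2, and 6 and 5 without control lineage PFOS 0.02 replicates 1 and 3. Among 34 member differences under 26 alternatives, 641 of 884 values kept direction and side of the threshold, 242 lost the call and 1 reversed: racgap1 between the lineages at 0.002 mg/L, never called, ran from -0.076 without control lineage PFOS 0.002 replicate 3 to 0.39 without replicate 1 and reached 0.94 with all 18 libraries. The cause of these shifts was not tested. Reads were fewest for kif5aa and kif21b among tested members, with means of 28.4 and 35.0 normalized reads.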
